A study of Homo sapiens with 12 samples.

Results

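Transcript levels of RFXANK, the other subunits of the RFX complex, the regulator NLRC5 and 5 genes of MHC class I antigen presentation were examined in HGC-27, a human gastric cancer cell line. The 9 genes are RFXANK, RFX5, RFXAP, NLRC5, HLA-B, HLA-C, B2M, TAP1 and TAPBP. They were taken from a table of 20345 gene rows by Ensembl identifier, and all 9 passed the filter of a mean of at least 1 FPKM that left 11225 rows for testing. FPKM counts the fragments of a gene, divided by its transcript length in kilobases and by the total of fragments mapped in that library. The genes were selected on earlier results of these same libraries, among them a higher RFXANK level in untreated libraries labelled TEAD4KO than in untreated WT libraries, so that comparison is given below as a description only.

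RNA-seq was performed on 12 libraries in 4 groups of 3. WT cells carry no stated edit and their titles name them as the control line, and cells labelled TEAD4KO are given as a knockout of TEAD4. Each genotype was grown in the same medium and profiled untreated and after GLUP, a cyclic peptide built to bind TEAD4 and draw its molecules together. Untreated libraries have the replicate numbers 1, 2 and 3, and GLUP libraries 14, 15 and 16. The time with GLUP differs between places in the sources used here. The replicates are described there as biological, with no more on how they were raised, and whether the line labelled TEAD4KO is a single clone is not stated.

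RFXANK, RFX5 and RFXAP form one complex that binds the X box of MHC promoters together with CREB-family factors and the CCAAT-binding factor NF-Y. NLRC5 docks on this platform at class I promoters, and its relative CIITA does so at class II promoters. A class I molecule is a heavy chain, such as HLA-B or HLA-C, paired with B2M, and it carries peptides that the transporter TAP1 and TAP2 brings into the endoplasmic reticulum and that TAPBP helps to load. The study also names RFXANK, with VGLL4, as a cofactor that gathers TEAD4 into condensates.

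The promoters of HLA-B, HLA-C and B2M are shown because they carry the letters at which this platform assembles. In each, a spaced pair of the CREB-type core TGACG and the NF-Y site ATTGG, the inverted form of CCAAT, is in capitals. The line also holds the bases in front of the pair where RFX binds. A further ATTGG in the HLA-B line follows the marked one in lower case, beyond the spacing of 15 to 25 bases used below. The sequences are from RefSeq on GRCh38.p14, on the strand of the gene, at chr6:31357244-31357330 for HLA-B (minus strand), chr6:31272156-31272242 for HLA-C (minus strand) and chr15:44711397-44711484 for B2M (plus strand).
HLA-B: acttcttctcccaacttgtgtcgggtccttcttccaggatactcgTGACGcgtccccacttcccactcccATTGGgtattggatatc
HLA-C: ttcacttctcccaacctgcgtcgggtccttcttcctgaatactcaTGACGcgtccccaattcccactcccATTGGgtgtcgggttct
B2M: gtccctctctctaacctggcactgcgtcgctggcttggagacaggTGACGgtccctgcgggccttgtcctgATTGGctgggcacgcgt
The gap between the capitals is 20 bases in HLA-B and HLA-C and 21 bases in B2M. Over the 250 bases before each of 35116 RefSeq start sites, searched on both strands, TGACG was found in 21.218% of windows, ATTGG in 32.008%, and TGACG at 15 to 25 bases before ATTGG in 0.407%. Of the 9 genes, 8 had a window, and 3 of these, the genes printed, held the spaced pair. TGACG was in a window of 5 of the 8 genes, and so was ATTGG. The 8 genes have 13 windows, so counts of genes are not in the same unit as shares of windows. NLRC5 is not in the promoter table. The core of the interferon response element, searched as GAAA, any 2 bases and GAAA again, found in 3.021% of all windows, was in a window of 4 of the 8 genes. The spacing was set after these promoters had been read, and the matches describe letters only.

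The libraries were checked before the genes were compared. TEAD4 transcript lay between 22.9 and 25.8 FPKM in WT libraries and between 26 and 30.1 FPKM in libraries labelled TEAD4KO. It was thus not lower under the label. The transcript level alone does not tell whether the gene was edited, and TEAD4 protein was not examined here. Each direction given here rests on the label. On the first principal component, which held 39.7% of the variance, the libraries labelled TEAD4KO lay at 9.91 or above, apart from untreated replicate 1 at -0.962 and GLUP replicate 16 at -5.26, while WT libraries lay between -16.2 and -3.71. FPKM totals ranged from 375361 to 423757, the sequencing depth is unknown, and the number of libraries sets the precision. Of the leukocyte markers, CD3E and MS4A1 were listed at 0 in every library and the summed level of all 8 was 1.28 to 3.24 FPKM. For the labelled gastric cancer line, the epithelial markers EPCAM, KRT18 and KRT19 were at or below 0.29 FPKM, CDH1 at 2.04 to 3.68 and KRT8 at 3.78 to 9.13 FPKM, whereas VIM was at 1240 to 1700 FPKM. Of the fibroblast markers, COL1A1, DCN and LUM were at 155 to 304, 55.1 to 77.6 and 48.6 to 64.5 FPKM, but COL1A2 was at 4.93 to 9.8 and PDGFRB at 0.82 to 1.27 FPKM. The summed level of the 5 fibroblast markers was 361 to 380 FPKM in untreated WT libraries, 374 to 412 with GLUP, 331 to 422 in untreated libraries labelled TEAD4KO and 292 to 376 with GLUP. No marker of these 3 lists passed in a tested comparison, although VIM did between genotypes with GLUP once the replicate number was a block (limma adjusted p = 0.0488, against 0.0818). Their part in the results below was not tested.

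Among the 9 genes, B2M, the shared light chain, was the most abundant at 188 FPKM averaged over the 12 libraries, and RFXANK came next at 68.5 FPKM. RFX5 (27.8 FPKM), which carries the DNA-binding domain of the complex, and TAPBP (27.8 FPKM) overlapped across libraries. HLA-B followed at 18.6 FPKM, with its highest library (23.9 FPKM) above the lowest of TAPBP (21.6 FPKM). TAP1 (9.27 FPKM) and HLA-C (8.98 FPKM) overlapped, as did NLRC5 (4.08 FPKM) and RFXAP (3.31 FPKM), the least abundant pair. The 3 RFX subunits were therefore far from equal in transcript level: RFXANK exceeded RFX5 by 1.98 to 3.12 times and RFXAP by 17 to 26.4 times, depending on the library. CIITA was at 0.0111 to 0.431 FPKM, below the filter, and the class II chains HLA-DRA and HLA-DPB1 were listed at 0 in 11 and 12 libraries.

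**Figure D1:**
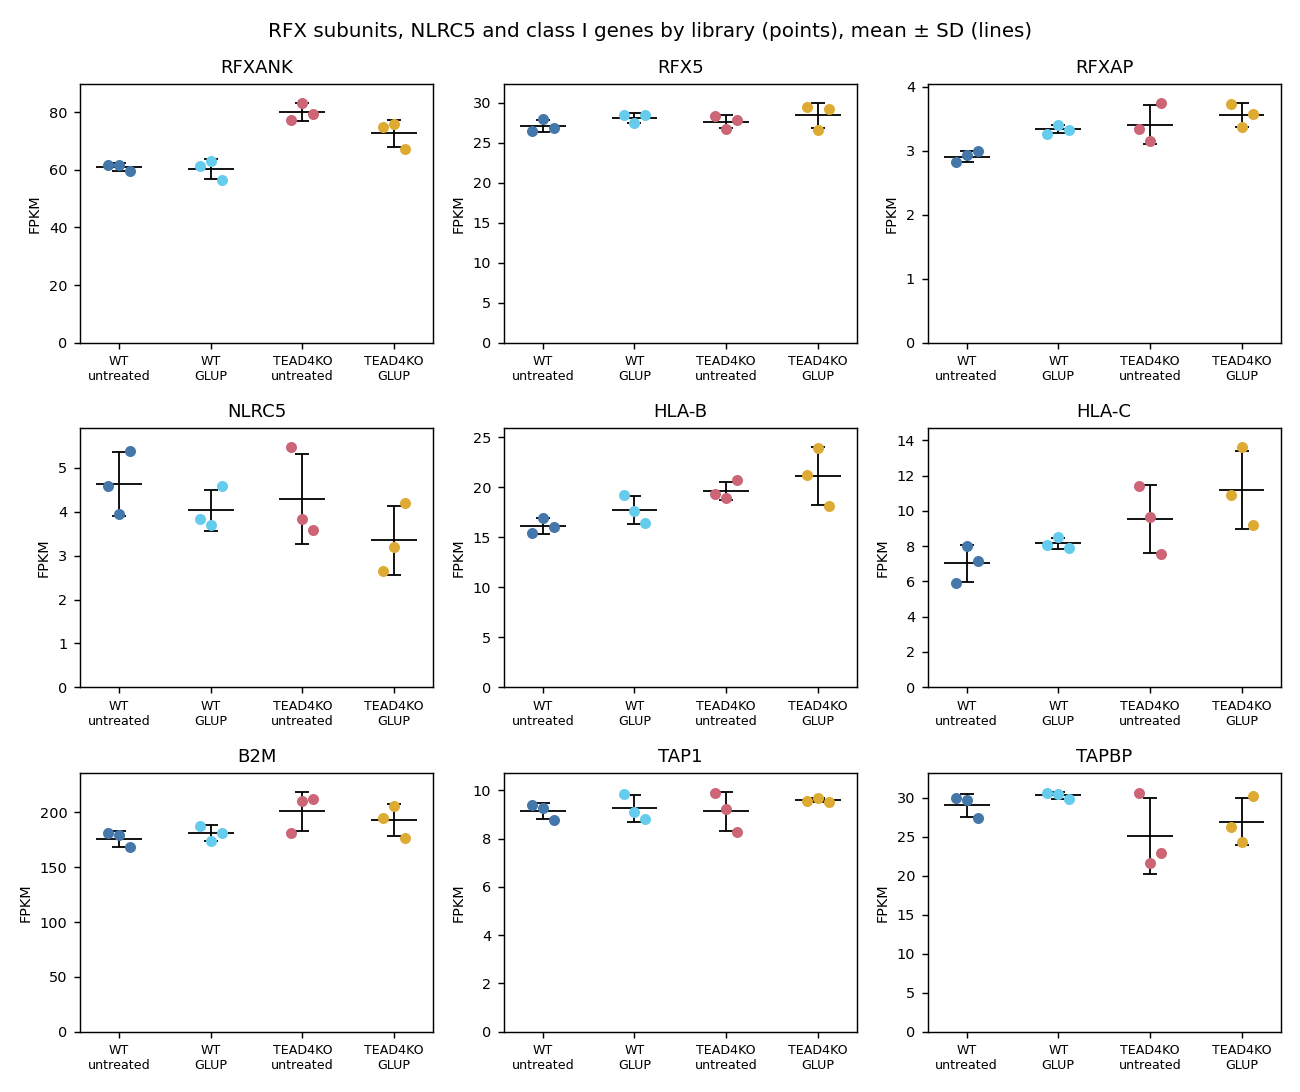
FPKM of the 9 genes (y axes, each starting at 0) in the 4 groups (x axes), with 1 point per library and the mean ± SD as black lines (n = 3). RFXANK is higher in all libraries labelled TEAD4KO (67.2 to 83.2 FPKM) than in WT libraries (56.5 to 63.2 FPKM), while RFX5 overlaps across the groups. The untreated libraries were used in the choice of the genes. Of all tested rows, 18.3% were higher under the label with no overlap without GLUP, and 16.7% with GLUP.

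Without GLUP, RFXANK was at 61.5, 61.8 and 59.4 FPKM in WT libraries and at 77.2, 83.2 and 79.5 FPKM in libraries labelled TEAD4KO. The groups did not overlap, with means of 60.9 ± 1.33 and 80 ± 3.04 FPKM (SD, n = 3) and a log2 fold change of 0.39 ± 0.063 (SE). Fold changes were taken between values of log2(FPKM + 1), so those of weakly expressed genes come out too small. RFX5, at 26.5, 28 and 26.8 against 28.3, 26.7 and 27.8 FPKM, had a log2 fold change of 0.026 ± 0.059. RFXAP, the third subunit, was at 2.82, 2.93 and 2.99 against 3.34, 3.15 and 3.75 FPKM (0.17 ± 0.083), again with no overlap. NLRC5, the class I regulator, was at 4.58, 3.94 and 5.39 against 5.47, 3.83 and 3.58 FPKM, and these groups overlapped.

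In the same untreated libraries HLA-B was at 15.4, 16.9 and 16 FPKM in WT and at 19.3, 18.9 and 20.7 FPKM in libraries labelled TEAD4KO. HLA-C was at 5.92, 8.01 and 7.13 against 11.4, 9.67 and 7.56 FPKM. B2M was at 181, 179 and 168 against 181, 210 and 212 FPKM. HLA-B thus did not overlap between the groups, whereas HLA-C and B2M did. The log2 fold changes were 0.27 ± 0.091 for HLA-B, 0.39 ± 0.15 for HLA-C and 0.19 ± 0.074 for B2M (SE). Of the loading genes, TAP1 had a log2 fold change of -0.0054 ± 0.076, and TAPBP of -0.22 ± 0.11. TAPBP was at 30, 29.7 and 27.4 FPKM in WT and at 30.6, 21.6 and 22.9 FPKM in libraries labelled TEAD4KO, and the library at 30.6 FPKM is replicate 1, the untreated library of this genotype nearest WT on the first component. Without that library the log2 fold change of TAPBP was -0.37. The log2 fold change was above 0 for 6 of the 9 genes, and 3 of 9 were higher with no overlap, beside 18.3% of all tested rows. Nothing is read from these counts, since this contrast was used in the choice of the genes, and no call is given for them in it.

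The comparison of genotypes in GLUP-treated cells used 6 other libraries, with the spread estimated over all 12, and was tested. These libraries come from the same lines as the untreated ones, so any lasting difference between the lines would appear in both. The test is therefore not independent of the choice of the genes. RFXANK was at 61.4, 63.2 and 56.5 FPKM in WT libraries and at 74.9, 75.7 and 67.2 FPKM in libraries labelled TEAD4KO, and the groups did not overlap. It was 1.2-fold higher, with a log2 fold change of 0.26 ± 0.063 (SE; 95% interval 0.13 to 0.4; limma, Benjamini-Hochberg adjusted p = 0.0292), from a mean of 60.4 ± 3.46 to 72.6 ± 4.69 FPKM (SD, n = 3). With only these 6 libraries fitted, RFXANK did not pass (limma adjusted p = 0.0729). RFXANK lies on GRCh37 chromosome 19 at 19303038 to 19312678 (plus strand), and its ends overlap BORCS8 by 363 bases and NR2C2AP by 461 bases, both on the minus strand. Whether counting used strand is not given in the sources used here, so its level may include their reads. BORCS8 was at 11 to 18.5 FPKM and NR2C2AP at 9.98 to 14.3 FPKM over the 12 libraries, and neither passed in a tested comparison.

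The partners of RFXANK did not pass. With GLUP, RFX5 was at 28.5, 27.4 and 28.5 FPKM in WT and at 29.4, 26.6 and 29.2 FPKM in libraries labelled TEAD4KO, with a log2 fold change of 0.012 ± 0.059 (95% interval -0.11 to 0.14; limma adjusted p = 0.919). Its sign turned under quantile normalization (-0.039). RFXAP was at 3.27, 3.41 and 3.32 against 3.73, 3.37 and 3.58 FPKM (0.072 ± 0.083, adjusted p = 0.63). NLRC5 was at 3.84, 3.69 and 4.58 against 2.66, 3.19 and 4.2 FPKM (-0.22 ± 0.16, adjusted p = 0.402), a difference of -0.1 without TEAD4KO GLUP replicate 14 and -0.36 without replicate 16. The groups overlapped for all 3 genes. The RFXANK to RFX5 ratio was 2.16, 2.3 and 1.98 in WT and 2.55, 2.85 and 2.3 in libraries labelled TEAD4KO (exact permutation test, two-sided p = 0.2, where 3 against 3 libraries allow 0.1 at the least). The RFXANK to RFXAP ratio was 18.7, 18.5 and 17 in WT and 20.1, 22.5 and 18.8 in libraries labelled TEAD4KO, with no overlap (exact permutation p = 0.1, the smallest possible). Of 5 ratios compared, 2 reached that p, the other being HLA-B to HLA-C, at 2.38, 2.07 and 2.08 against 1.95, 1.76 and 1.97. The Benjamini-Hochberg adjusted p (exact permutation tests) was 0.2 for each of the 5.

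Of the class I members, HLA-C with GLUP was at 8.06, 8.51 and 7.89 FPKM in WT and at 10.9, 13.6 and 9.19 FPKM in libraries labelled TEAD4KO. The groups did not overlap, yet the log2 fold change of 0.40 ± 0.15 (95% interval 0.086 to 0.72) missed the threshold (limma adjusted p = 0.122). HLA-B was at 19.2, 17.6 and 16.4 against 21.2, 23.9 and 18.1 FPKM, overlapping at 1 library, with a log2 fold change of 0.23 ± 0.091 (95% interval 0.035 to 0.43; limma adjusted p = 0.147). Without GLUP replicate 16 of the libraries labelled TEAD4KO, which lay within the WT range of the first component, both passed: HLA-B at 0.33 (limma adjusted p = 0.0197) and HLA-C at 0.53 (limma adjusted p = 0.0303). RFXANK was then at 0.32 (limma adjusted p = 0.00659), and 1952 of all tested rows were called, against 656 with every library. Without TEAD4KO GLUP replicate 15, HLA-B was at 0.14 (limma adjusted p = 0.452) and HLA-C at 0.27 (limma adjusted p = 0.384), with 280 rows called. Over all 24 alternatives the adjusted p ranged from 0.0197 to 0.52 for HLA-B and from 0.0296 to 0.384 for HLA-C. The class I heavy chains are polymorphic and close to each other in sequence, so how reads were divided among them is uncertain.

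B2M with GLUP was at 188, 174 and 181 FPKM in WT and at 195, 206 and 177 FPKM in libraries labelled TEAD4KO, with overlap (0.087 ± 0.074, limma adjusted p = 0.501), and its sign turned under quantile normalization (-0.06). TAP1, a subunit of the peptide transporter, was at 9.86, 9.08 and 8.81 against 9.57, 9.68 and 9.53 FPKM (0.049 ± 0.076, limma adjusted p = 0.73), and it overlaps PSMB9 by 8608 bases. TAPBP was at 30.6, 30.5 and 29.8 against 26.2, 24.3 and 30.2 FPKM (-0.17 ± 0.11, limma adjusted p = 0.356). The library labelled TEAD4KO at 30.2 FPKM is again GLUP replicate 16. In all, 1 of the 9 genes passed, higher, where 4.91% of tested rows were called higher and 0.935% lower, and 2 of 9 were higher with no overlap, where 16.7% of tested rows were. With 9 genes, counts of 1 and 2 lie near those shares. At an unadjusted p under 0.05 there were 3 of the 9, RFXANK, HLA-B and HLA-C, and 2679 tested rows. Under quantile normalization 510 of 809 calls were higher, against 551 of 656 as deposited.

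The call of RFXANK was lost without WT GLUP replicate 14 (limma adjusted p = 0.0801), WT GLUP replicate 16 (limma adjusted p = 0.147), TEAD4KO GLUP replicate 14 (limma adjusted p = 0.121) or TEAD4KO GLUP replicate 15 (limma adjusted p = 0.115), and over all 24 alternatives its adjusted p ranged from 0.00423 to 0.296. With the replicate number as a block it was 0.0171, in a fit that called 1064 of all tested rows, 759 of them higher, against 656 and 551 without the block. The genotype difference also followed transcript length across genes. Spearman's rho between the log2 fold change with GLUP and length was -0.478 over 11077 genes, and with GC content 0.198. Without GLUP these were -0.52 and 0.3. Genes are not independent replicates, and the values describe these libraries. RFXANK is short (1376 nt, at the 11.8th percentile of tested rows) and rich in GC (60.5%), as are HLA-B (1536 nt, 58.9%) and HLA-C (1542 nt, 60.1%). B2M is shorter (943 nt) with 39.1% GC, and NLRC5 is long (6781 nt). The median of tested rows was 3344 nt and 48.2% GC.

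**Figure D2:**
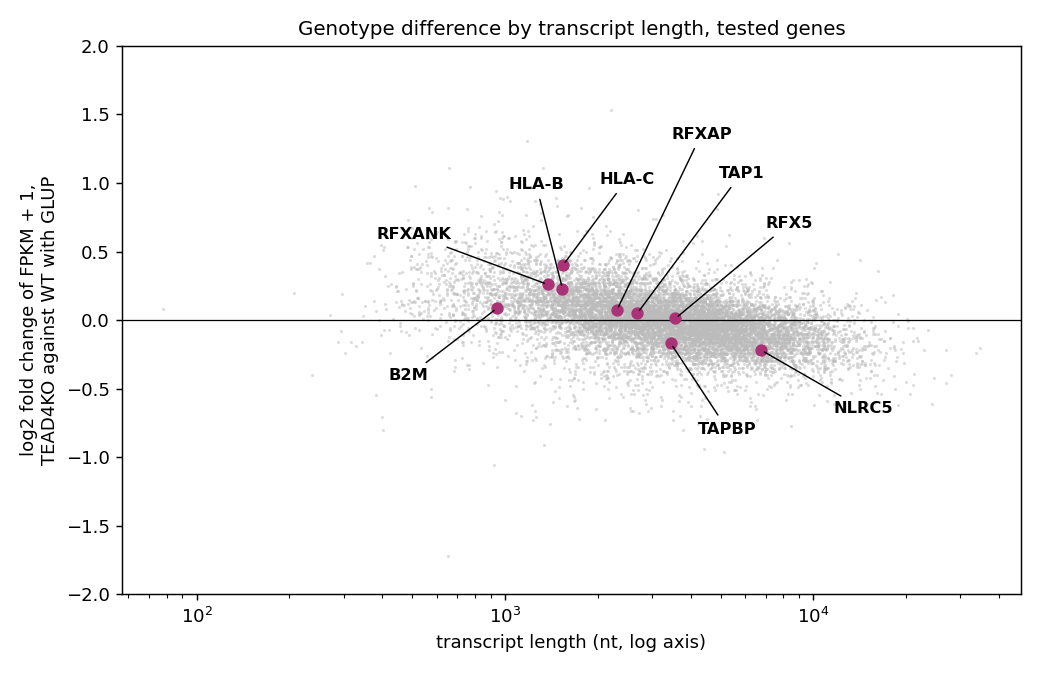
Log2 fold change between libraries labelled TEAD4KO and WT with GLUP (y axis) against transcript length (x axis, log scale) for 11077 tested genes (grey points) with the 9 genes named. Of all genes, 3 lie outside the y range; the grey cloud falls from left to right (rho = -0.478), with RFXANK, HLA-B, HLA-C and B2M on its short side and NLRC5 on its long side.

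After a correction of every library for length and GC content, the rho with length became -0.022 and the RFXANK difference with GLUP became 0.11 ± 0.059 (SE, limma adjusted p = 0.296), or adjusted p = 0.214 with the replicate block. The same correction with each library left out in turn, chosen after seeing the data, gave 0.064 to 0.15 for RFXANK and adjusted p from 0.117 to 0.659. HLA-B became 0.11 ± 0.097, HLA-C 0.27 ± 0.14 and B2M -0.082 ± 0.043, so the sign of B2M turned. After correction 0 of the 9 genes passed in limma, where 2.58% of tested rows were called higher and 136 of 11225 rows lower. Without GLUP the corrected difference was 0.19 ± 0.059 for RFXANK, 0.12 ± 0.097 for HLA-B, 0.21 ± 0.14 for HLA-C, 0.015 ± 0.043 for B2M and -0.24 ± 0.072 for TAPBP. What part of the difference in RFXANK goes with length and GC rather than genotype cannot be told apart in this design, as the trend and the genotype move together.

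**Figure D3:**
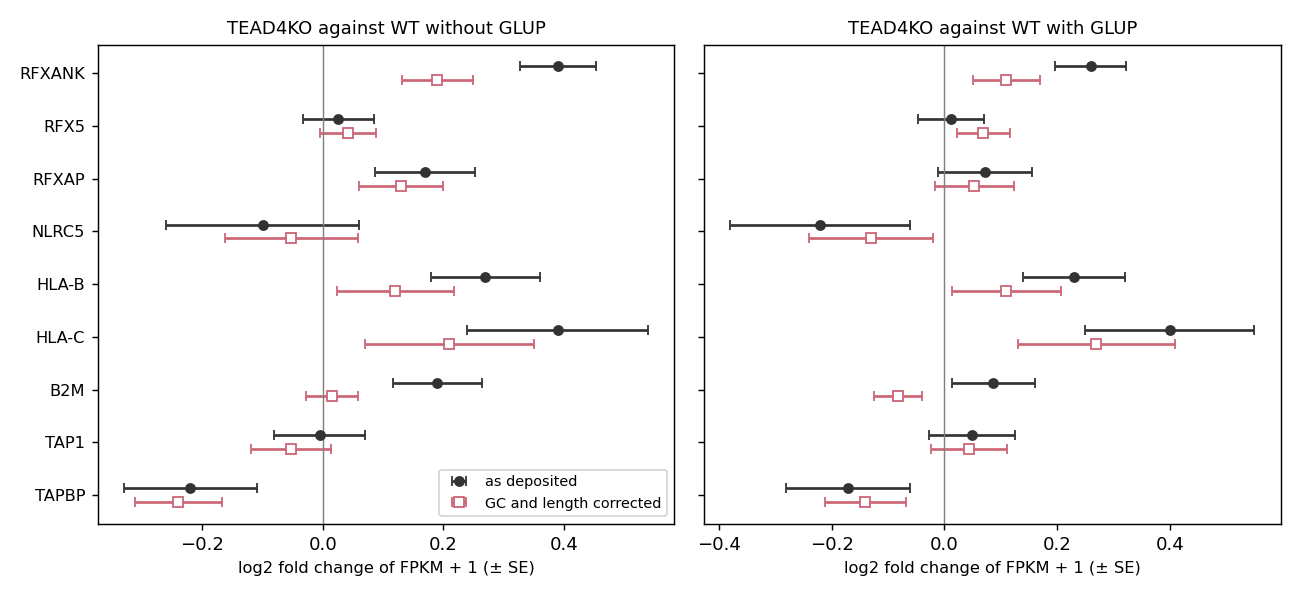
Log2 fold change (x axes, ± SE) of the 9 genes between libraries labelled TEAD4KO and WT, without GLUP (left) and with GLUP (right), as deposited (filled circles) and after the GC and length correction (open squares). RFXANK moves from 0.39 to 0.19 on the left and from 0.26 to 0.11 on the right, and B2M from 0.087 to -0.082 on the right.

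Further genes of the pathway were taken from lists and counted in the comparison of genotypes with GLUP. Of the 8 tested class I chains reported here 0 passed (limma), with a median log2 fold change of 0.11, beside -0.0039 over all tested rows. HLA-E, a nonclassical chain that natural killer cells read, was at 28.7, 29.1 and 28.6 FPKM in WT and at 37.8, 34.4 and 30.7 FPKM in libraries labelled TEAD4KO, with no overlap, but its log2 fold change of 0.24 ± 0.071 missed the threshold (limma adjusted p = 0.0663). HLA-E passed without TEAD4KO GLUP replicate 16 (log2 fold change of 0.31, limma adjusted p = 0.00875), and its adjusted p ran from 0.00572 to 0.251 over its alternatives. Among peptide supply and loading genes 0 of 14 passed in either direction (limma; median -0.024), including the chaperones CALR at 538 to 641 FPKM and CANX at 373 to 433 FPKM. With the replicate block 1 of these passed, PSMB10, an immunoproteasome subunit (log2 fold change of 0.31, limma adjusted p = 0.0459, against 0.107). In the class II list 3 of 14 genes were tested and 1 rose: HLA-DMA, which helps to load class II peptides, went from 3.25, 3.58 and 3.2 to 5.51, 4.84 and 4.13 FPKM (0.42 ± 0.1, limma adjusted p = 0.0316). It no longer passed in 5 of 12 leave-one-out fits or after the GC and length correction (0.29, limma adjusted p = 0.0714). Among RFX factors and NLRC5 with their CREB and NF-Y partners, 1 of 8 tested genes rose, RFXANK itself, and NFYC, an NF-Y subunit, was at 29.6 to 37.4 FPKM. Of the other RFX factors and the RFXANK paralogue 0 of 5 passed, with RFX7 at 8.34 to 15.4 and RFX1 at 4.36 to 6.65 FPKM, while RFX7 passed with the block (-0.33, limma adjusted p = 0.0458, against 0.167).

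Of the genes for interferon-gamma and NF-kB signalling, inputs to class I expression, 0 of 11 passed (limma; median -0.024), and the receptor chains IFNGR1 and IFNGR2 were at 25.9 to 32 and 18.5 to 30.4 FPKM. Among the neighbours of RFXANK on chromosome 19, 0 of 8 tested genes passed as deposited, with TMEM161A at 25.9 to 40.4 FPKM, and 1 passed after the correction, GATAD2A (0.20, limma adjusted p = 0.0494, or 0.0819 with the block). Of TEAD4 and its partners, 1 of 7 rose and 1 fell. TEAD4 itself had a log2 fold change of 0.23 ± 0.063 (limma adjusted p = 0.0479, or 0.0516 with the block), which no longer passed in 8 of 12 leave-one-out fits or after correction (0.11, limma adjusted p = 0.271). TEAD2, a paralogue, fell from 14.2, 13.9 and 14.5 to 10.8, 9.23 and 10.5 FPKM (-0.45 ± 0.091, limma adjusted p = 0.0125), and 3 of those 12 fits did not call it. After the GC and length correction TEAD2 still passed (-0.5, limma adjusted p = 0.00845, or 0.0108 with the block).

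GLUP was then compared with no treatment. None of the 9 genes passed in WT cells, where 1 tested row did (0.00891%), in libraries labelled TEAD4KO, where 5 did (0.0445%), in the interaction of GLUP and genotype, where 1 did (0.00891%), or over both genotypes together, where 34 did (0.303%; limma in each). At an unadjusted p under 0.05 there were 0 of the 9 genes and 385 of 11225 rows in WT, 1 and 716 in libraries labelled TEAD4KO, 0 and 284 for the interaction, and 0 and 846 over both genotypes. The number of the 9 genes that passed after adjustment stayed at 0 in these 4 comparisons under each alternative run.

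In WT cells RFXANK differed by -0.013 ± 0.063 (SE; 95% interval -0.15 to 0.12; limma adjusted p = 0.999), and its sign turned under quantile normalization (0.0072). In libraries labelled TEAD4KO the GLUP values of 74.9, 75.7 and 67.2 FPKM all lay below the untreated values of 77.2, 83.2 and 79.5 FPKM, with a log2 fold change of -0.14 ± 0.063 (95% interval -0.28 to -0.0035; limma adjusted p = 0.769). This was 1 of 9 genes lower with no overlap, where 3.98% of tested rows were, and without GLUP replicate 16 the difference was -0.085. The interaction for RFXANK was -0.13 ± 0.089 (95% interval -0.32 to 0.066). Untreated libraries of both genotypes were used in the choice of the genes, which favours a high untreated RFXANK level under the label. Each comparison of RFXANK with them, also the one over both genotypes, is therefore not independent of that choice. RFXAP in WT cells had GLUP libraries all above the untreated ones, at 3.27 to 3.41 against 2.82 to 2.99 FPKM (0.15 ± 0.083, limma adjusted p = 0.999), 1 of 9 genes higher with no overlap where 10.2% of tested rows were.

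Over both genotypes the class I genes HLA-B (0.11 ± 0.062, limma adjusted p = 0.721) and HLA-C (0.21 ± 0.1, limma adjusted p = 0.68) and the regulator NLRC5 (-0.22 ± 0.11, limma adjusted p = 0.682) did not pass, nor did RFXANK (-0.076 ± 0.045, limma adjusted p = 0.74). The intervals were -0.021 to 0.24 for HLA-B, -0.007 to 0.42 for HLA-C, -0.45 to 0.0086 for NLRC5 and -0.17 to 0.021 for RFXANK. In libraries labelled TEAD4KO alone NLRC5 went from 5.47, 3.83 and 3.58 to 2.66, 3.19 and 4.2 FPKM (-0.28 ± 0.16, limma adjusted p = 0.835), and the difference ran from -0.13 without untreated replicate 1 to -0.42 without GLUP replicate 16. VGLL4, the other TEAD4 cofactor the study names beside RFXANK, did rise over both genotypes. It was at 11, 9.62 and 9.86 FPKM in untreated WT and 11.9, 12.4 and 14.3 with GLUP, and at 11.3, 11 and 10.7 against 13.3, 14.1 and 15.1 FPKM in libraries labelled TEAD4KO. Its log2 fold change was 0.32 ± 0.055 (limma adjusted p = 0.0243), and it no longer passed in 7 of 12 leave-one-out fits. VGLL4 passed in neither genotype alone (limma adjusted p = 0.61 in WT and 0.26 in libraries labelled TEAD4KO). After the GC and length correction it passed over both genotypes (0.32, limma adjusted p = 0.00693).

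**Figure D4:**
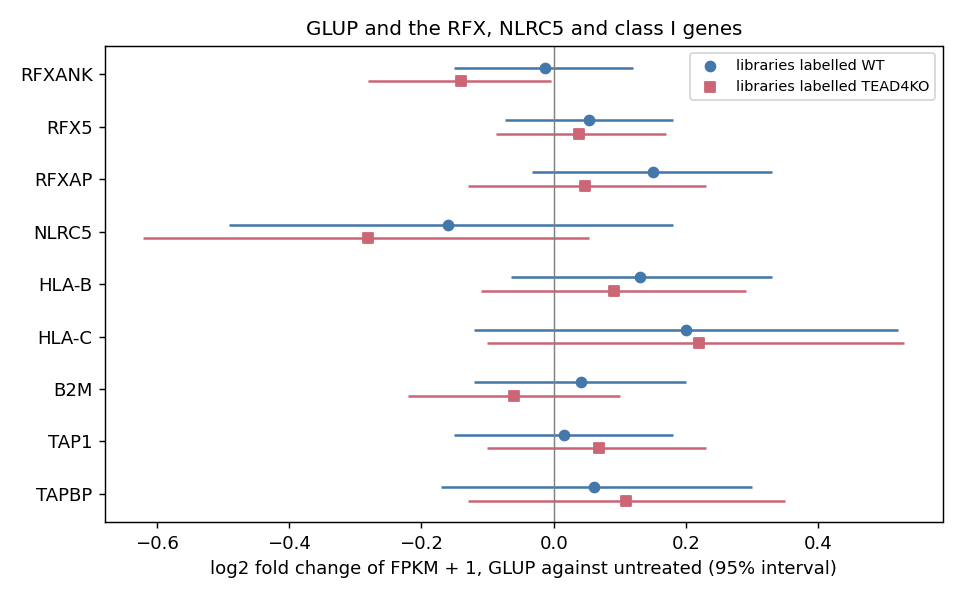
Log2 fold change of GLUP against untreated libraries (x axis, with 95% intervals as lines) for the 9 genes (y axis) in WT (circles) and in libraries labelled TEAD4KO (squares). All intervals cover 0 except that of RFXANK in libraries labelled TEAD4KO (-0.28 to -0.0035), which did not pass after adjustment over all tested rows. Its untreated libraries were used in the choice of the genes, partly for their high RFXANK level, so this interval is not independent of that choice.

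Across the 12 libraries the members did not move as one group. Pearson's r of log2(FPKM + 1) between RFXANK and RFX5, its partner in the complex, was -0.052, whereas RFXANK with B2M had r = 0.776 and with TAPBP r = -0.729. HLA-B and HLA-C had r = 0.814, and B2M and TAPBP r = -0.84. Within groups, RFXANK had r = -0.515 with RFX5, 0.594 with B2M and -0.523 with TAPBP. HLA-B and HLA-C then had r = 0.485, and B2M and TAPBP r = -0.779. RFXANK and NLRC5 had r = -0.391 over the 12 libraries and -0.787 within groups, and NLRC5 and B2M -0.604 and -0.755. The values over the 12 libraries rest on libraries that share a genotype difference and a length trend, and all are given without a test.

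The tested rows most like RFXANK over the 12 libraries were NDUFB7, a subunit of respiratory complex I (r = 0.987), THAP11 (r = 0.976), OAZ1, which controls ornithine decarboxylase (r = 0.975), JTB (r = 0.975) and DDX54 (r = 0.974). Of these, 4 have transcripts under the median length, at 535 to 1876 nt, and DDX54 has 4377 nt with 60.6% GC. Those most like HLA-B were IFT22 (r = 0.959), RIPK2 (r = 0.947), USO1 (r = 0.931), NMB (r = 0.929) and FHL3 (r = 0.915). Their lengths fall on both sides of the median, with IFT22 at 4881 nt, USO1 at 3971 nt, RIPK2 at 2516 nt, FHL3 at 1656 nt and NMB at 655 nt. No RFX subunit or class I gene was among either set of 5.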

How the data were processed

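RNA-seq of 12 libraries of the HGC-27 line was analysed, in 4 groups of 3 set by the sample labels. Reads were processed by the authors through a web-based cloud service, and what they deposited is FPKM, with a column for each library and no pooling. The submitters' processing notes name HISAT2, Cufflinks and RSEM without versions or roles, and the build hg19; the annotation is not given in the sources used here. FPKM removes neither GC nor fragment length effects, and steps of whole reads could not be recovered (the most common ratio between libraries held 0.505% of 1189 genes under 0.1 FPKM), so depth is unknown and no count model was used.

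The 9 genes, the gene lists and the tests were chosen with earlier results of these data known. The 11225 rows whose mean reached 1 FPKM entered as log2(FPKM + 1). A single model of the 4 groups was fitted (limma 3.58.1, lmFit and trended eBayes, under R 4.3.3), GLUP over both genotypes had genotype as a covariate, and the Benjamini-Hochberg adjustment ran over all tested rows in each comparison. A gene passed at an adjusted p under 0.05, two-sided. Fits were tested on simulated data. Also tried were quantile normalization, median-ratio scaling, a pseudocount of 0.1, keeping all rows or those with a mean of 5 FPKM, array weights, eBayes with no trend, a fold over 2, the GC and length correction, only the groups compared, the replicate block and leaving out each library.

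The GC and length correction removed per-library splines (5 degrees of freedom each). Names were found for 96.5% of rows and length and GC for 98.7% of tested rows, on GRCh37 with GENCODE annotation. Same-numbered libraries, by their titles, had correlations of deviations of 0.106, 0.152 and 0.336 with GLUP and of -0.0569, 0.203 and -0.0149 untreated. Differently numbered libraries ranged from -0.245 to 0.134 with GLUP and from -0.191 to 0.182 untreated. The main model did not pair libraries, and the replicate block paired same-numbered ones in both treatments. From each list up to 4 genes that passed were named, or the most abundant to make 2, with the 9 genes, TEAD4, CIITA, both overlapping neighbours of RFXANK and the 5 rows most like RFXANK and HLA-B. The markers CD3E, MS4A1, EPCAM, CDH1, KRT18 and KRT19, COL1A2, LUM, PDGFRB, PSMB10 and the class II chains HLA-DRA and HLA-DPB1 were named after their values were seen. A gene of the class I list is not reported here.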

Additional observations from a re-analysis of the deposited data

How the results depend on the processing

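The number of the 9 genes that passed between genotypes with GLUP, 1 as reported, was 0 with median-ratio scaling, without the eBayes trend, with a fold over 2 required, with the GC and length correction (with or without the replicate block) and with only the groups compared. It was 3 with array weights, which called 2487 rows in all against 656, and 0 to 3 when 1 library was left out. The replicate block alone left it at 1 and changed no call of the 9 genes; the calls of other named genes that it changed stand beside their values. The 4 counts for GLUP stayed at 0 under each alternative run. Without GLUP, where no call was made, 6 of the 9 genes had a difference above 0, 5 under quantile normalization and 6 to 7 when 1 library was left out. RFXANK between genotypes with GLUP kept its sign in all 24 alternatives (0.11 to 0.32) and lost its call in 10, with an adjusted p (limma) of 0.0615 under median-ratio scaling. Of the 18 tested values of the 9 genes for which the alternatives were run, signs turned for 3, none of which had passed. RFX5 between genotypes with GLUP became -0.039 under quantile normalization and -0.013 to 0.057 with 1 library left out. B2M became -0.06 under quantile normalization and -0.082 with the GC and length correction, also with the block. RFXANK for GLUP in WT cells became 0.0072 under quantile normalization, 0.0052 with array weights, 0.005 with the correction and -0.047 to 0.033 with 1 library left out. Of other values, which were followed only under the correction, RFX5 for the interaction went from -0.014 to 0.027 and B2M for GLUP over both genotypes from -0.0098 to 0.0079. Without GLUP RFX5 ranged from -0.034 to 0.049 and TAP1 from -0.059 to 0.057. RFXAP and NLRC5 have no value at a mean of at least 5 FPKM, which removes them. The causes of these changes were not tested. Depth is unknown, and what could be detected depends on 3 libraries a group and on the spread, which the main model estimates over all 12 libraries.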

Other observations

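IFI30, a lysosomal thiol reductase of antigen processing induced by interferon-gamma and the most abundant gene of the class II list, was low in only 2 WT libraries. Untreated WT replicates 1, 2 and 3 had 67.5, 66.1 and 21.9 FPKM, and WT GLUP replicates 14, 15 and 16 had 66.9, 60.7 and 20.6 FPKM. The libraries labelled TEAD4KO ranged from 65.1 to 92.4 FPKM. In both low libraries HLA-B (16 and 16.4 FPKM) lay within the range of the other WT libraries, and B2M was at 168 and 181 FPKM, the lowest WT library and a middle one. The 2 low libraries were also the farthest of the WT libraries on the first principal component, at -10.8 and -16.2, with the others at -9.12 to -3.71. Groups of 3 libraries allow no test of a single far library.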
